A study of Mus musculus with 22 samples.

Results

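Transcripts of 8 homing receptors were followed through B cell development in tet-LIN28B mice and littermate controls. They are the chemokine receptors Cxcr4, Cxcr5, Ccr6, Ccr7 and Ccr9, the sphingosine 1-phosphate receptors S1pr1 and S1pr4, and the oxysterol receptor Gpr183. They were chosen by symbol, and all 8 were found in each of the 3 stage tables, out of 41814 genes listed in at least 1 of them. tet-LIN28B mice carried 1 copy of a doxycycline (Dox) inducible, Flag-tagged human LIN28B cDNA at the Col1a locus (Col1a tetO-LIN28B) together with the Rosa26 rtTA*m2 transactivator, which is not restricted to B cells. Controls were littermates heterozygous for Rosa26 rtTA*m2 alone. Mice of both genotypes were adult and ate Dox chow (200 mg/kg) for 10 days, so the controls share the drug and the transactivator. Poly-A RNA was sequenced from bone marrow large Pro-B cells (4 control and 5 tet-LIN28B mice), large Pre-B cells (3 and 4) and small Pre-B cells (3 and 3). The cells were sorted as CD93+ IgM- after depletion of CD3+, TER119+ and GR1+ cells, with cKIT dividing Pro-B from Pre-B and forward scatter dividing large from small.

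These receptors all couple to G proteins and steer lymphocytes towards or away from a ligand source. CXCR4 binds CXCL12 and holds precursors near the bone marrow stroma. CXCR5 binds CXCL13 and CCR7 binds CCL19 and CCL21, which draws mature B cells to follicles and to the border with the T cell zone. CCR6 and CCR9 bind CCL20 and CCL25, ligands known from mucosal tissue and, for CCL25, the thymus. S1PR1 senses sphingosine 1-phosphate in blood and lymph and is known for the exit of lymphocytes from tissues, S1PR4 binds the same lipid, and GPR183 (EBI2) follows oxysterols in lymphoid organs. LIN28B binds RNA, is a hallmark of fetal blood development and blocks the maturation of let-7 microRNAs.

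The sequences below are shown because let-7 is the textbook target of LIN28B, and because the letters pairing with its seed occur in 2 of the 8 receptor 3′ untranslated regions (UTRs). Among the mouse let-7 and miR-98 miRNAs in RefSeq, 9 share the seed at bases 2 to 8, in capitals here for 2 of them. Other miRNAs were not searched for it.
let-7a-5p: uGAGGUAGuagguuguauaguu
let-7g-5p: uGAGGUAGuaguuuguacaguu
The letters CTACCTC, the reverse complement of that seed, were searched on the sense strand of the transcript with the longest 3′ UTR of each gene (GENCODE vM21, build GRCm38). They were present in the 3′ UTRs of Ccr7 (chr11:99144786-99144792, minus strand, UTR bases 166 to 172 of 762) and Ccr9 (chr9:123781290-123781296, plus strand, UTR bases 926 to 932 of 3966), and additionally in the coding sequence of Ccr7 (chr11:99145363-99145369, minus strand, bases 726 to 732 of 1137). The 26 bases around each are given with the match in capitals.
Ccr7 3′ UTR: cccacttataaCTACCTCaaccaaag
Ccr7 coding sequence: atgagtttctgCTACCTCattatcat
Ccr9 3′ UTR: gaggctccctgCTACCTCccctttcc
Both Ccr7 matches are followed by an A and the Ccr9 match is not. Over 20931 mouse genes, 8.98% held CTACCTC in the 3′ UTR, 3.03% held it followed by an A, and 12.5% held it in the coding sequence. Their median 3′ UTR was 956 bases, and these shares are not matched for length. A match in the letters is a description and not a site. let-7 itself was not measured in these libraries.

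The libraries held 13.9 to 51.0 M reads on genes. Lin28b, the check of the labels, was higher in every tet-LIN28B library than in every control at each stage: 56.9 to 232 against 4.63 to 10.2 normalized counts in large Pro-B, 41.9 to 175 against 9.92 to 28.8 in large Pre-B, and 81.9 to 230 against 0 in all 3 controls in small Pre-B cells. The reads were counted on the mouse gene, and the transgene is human. The 14 markers of B cell precursors were present in all groups. Large-cell libraries were less even than small Pre-B libraries, with between 17931 and 31881 genes above 0, against 19237 to 19815 in small Pre-B cells. In large Pro-B cells the most genes above 0 were in tet-LIN28B replicate 3 (84.6% of those listed), control replicate 4 (71.6%) and tet-LIN28B replicate 5 (69.6%), and in large Pre-B cells in control replicate 3 (75.1%) and tet-LIN28B replicate 4 (69.2%). Bulk libraries cannot tell fewer cells of a type from less RNA per cell.

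Receptor levels were compared between genes as RPKM, a gene's share of all reads on genes scaled to a common library total (RPM) and divided by kilobases of exon. Ccr7 had the highest mean at every stage and in both genotypes, and Ccr6 and Ccr9 were among the lowest 3. In control large Pro-B cells Ccr7 averaged 22.5 ± 6.94 (SD, n = 4), followed by Cxcr4 (14.5), S1pr4 (11.1) and S1pr1 (6.73), and the library ranges of these 4 neighbours overlapped. Cxcr5 (1.27), Gpr183 (0.302), Ccr9 (0.117) and Ccr6 (0.0601) followed below a gap. In control small Pre-B cells the order was Ccr7 (117), S1pr1 (60.0), Cxcr4 (48.8), S1pr4 (24.8), Gpr183 (3.32), Cxcr5 (0.723) and Ccr9 (0.125), and the library ranges of neighbours in this order did not overlap. Ccr6 had no read in these 3 libraries, where a count of 0 allows up to 3 reads each. Ccr7 made up 46.0% of the summed level of the 8 genes in control and 58.7% in tet-LIN28B small Pre-B cells.

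Across stages, levels were set side by side as RPM, without a test, because the stages were normalized apart and the small Pre-B cells came from other mice than the large cells. From large Pro-B to large Pre-B cells in controls, 2 of 8 receptors were higher in every later library and none lower, where 9.75% of 11830 genes were higher and 8.66% lower by the same rule (6 of the 8 receptors are among those genes). They were Ccr7, which went from 44.5 ± 13.7 (n = 4) to 171 (158 to 178, n = 3) RPM, and Ccr9, from 1.20 to 2.62. In tet-LIN28B cells 4 receptors were higher without overlap, Cxcr4, Ccr7, S1pr1 and Gpr183, and none lower, against 5.35% and 8.56% of genes. Ccr7 and Cxcr4 were higher in the large Pre-B library of 3 of 3 control and 4 of 4 tet-LIN28B mice that gave both large populations. S1pr1 was higher in 1 of 3 control mice and in 4 of 4 tet-LIN28B mice.

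More receptors moved without overlap at the step to small Pre-B cells than at the step before. Ccr7 rose more at the earlier step (3.84-fold in controls and 5.04-fold in tet-LIN28B cells) than at this one (1.36-fold and 1.55-fold). In controls, 5 receptors were higher in every small Pre-B library, against 42% of genes: Gpr183 9.33-fold (1.03 to 9.59 RPM), S1pr1 8.60-fold (21.2 to 183), S1pr4 2.87-fold (20.6 to 59.1), Cxcr4 2.10-fold (42.1 to 88.2) and Ccr7 1.36-fold (171 to 232). Ccr9 (2.62 to 1.29) was lower, against 28.8% of genes, and Cxcr5 overlapped (1.43 to 2.41). Ccr6 had 1, 2 and 20 reads in the control large Pre-B libraries and 0 in the small Pre-B libraries, and since a 0 allows up to 3 reads, a change was not detectable at this depth. In tet-LIN28B cells the same 5 genes were higher, joined by Cxcr5 (3.23 to 9.56), which makes 6, against 39.6% of genes. Ccr9 and Ccr6 overlapped there, against 25.7% of genes lower. The share of receptors that moved is thus read beside a background in which most genes moved at this step.

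**Figure D1:**
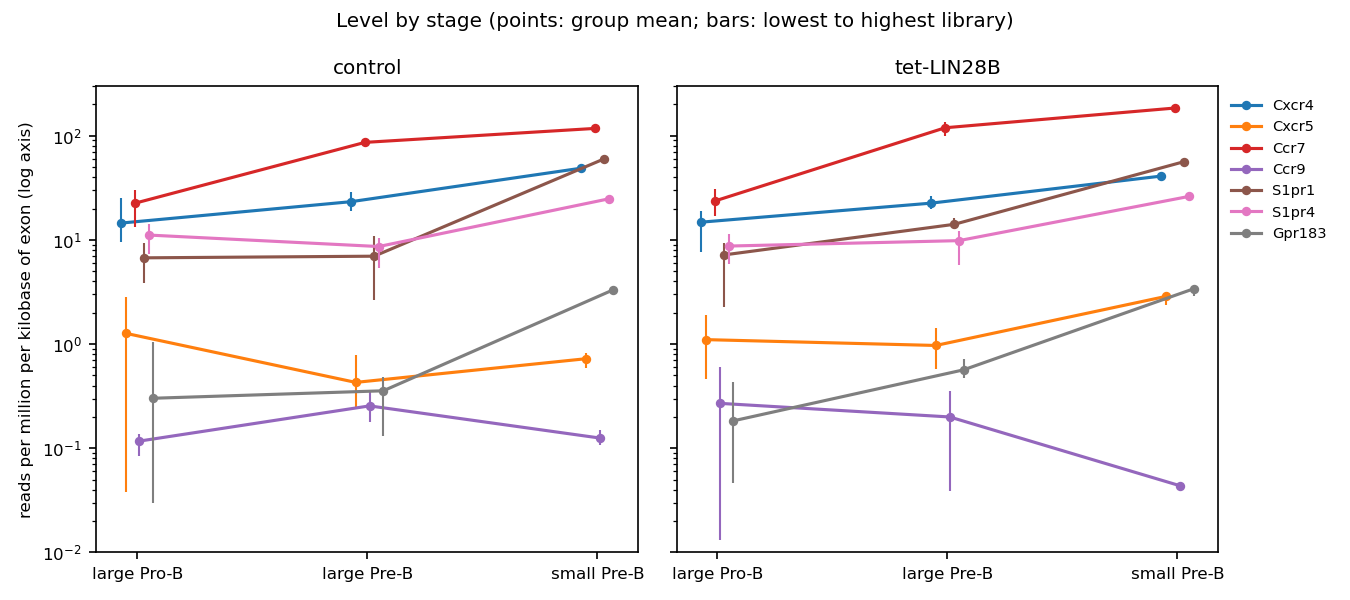
Level of 7 receptors by stage in control (left) and tet-LIN28B cells (right), as RPKM on a log axis; points are group means and vertical bars run from the lowest to the highest library. Ccr6 is left out because it was at 0 in control small Pre-B cells. Ccr7 lies on top throughout, S1pr1 and Gpr183 climb at the step to small Pre-B cells, and Ccr9 declines there in controls, while its library ranges overlap in tet-LIN28B cells.

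The question of the genotype comparison is whether LIN28B alters receptor transcripts at a given stage. It was tested per stage on log2(normalized count + 1) with limma, which compares a gene's group difference with a spread moderated over all genes, and genes with an adjusted p (Benjamini-Hochberg) under 0.05 were called. In small Pre-B cells, Cxcr5 and Ccr7 rose and Ccr9 fell in tet-LIN28B mice. That is 3 of the 7 receptors tested, where 14.4% of 14664 genes were called (7.34% higher and 7.03% lower). The 7 receptors had a median log2 fold change of 0.06, against -0.00 for all genes. For 5 of the receptors all libraries of one genotype lay above all of the other, namely the 3 called genes, Cxcr4 (lower) and S1pr4 (higher), against 33.9% of genes.

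Cxcr5, the receptor for the follicle chemokine CXCL13, had 67.9, 95.1 and 87.4 normalized counts in the control small Pre-B libraries and 381, 366 and 273 in the tet-LIN28B libraries. Every tet-LIN28B library lay above every control. The mean was 4.07 times the control mean, and the log2 fold change was 2.01 ± 0.21 (SE) with an adjusted p of 0.000351 (limma). Cxcr5 spans chr9:44511787-44561877 on the minus strand and shares 110 exon bases with Bcl9l on the opposite strand. Under every alternative tried the call remained, with log2 fold changes of 1.87 to 2.16.

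Ccr7, the receptor for CCL19 and CCL21 (chr11:99144196-99155077, minus strand), was already abundant in controls, with 7871, 7915 and 8375 normalized counts. It reached 13314, 13580 and 12024 in tet-LIN28B cells, so that the lowest of these exceeded the highest control. The rise was 1.61-fold in the means and 0.69 ± 0.07 on the log2 scale (limma adjusted p = 0.000226). Log2 fold changes were 0.65 to 0.74 over the alternatives, each of which kept the call.

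Ccr9, the receptor for CCL25 (chr9:123678439-123784330, plus strand), was low at this stage and moved the other way. Its control libraries had 53.0, 42.2 and 38.5 normalized counts (39 to 57 reads), and its tet-LIN28B libraries had 16.9, 15.6 and 15.4 (15 to 24 reads). The genotypes did not overlap, and the log2 fold change was -1.42 ± 0.35 (limma adjusted p = 0.0244). The call did not hold without any 1 of the 3 controls (adjusted p 0.111, 0.0722 and 0.0635 without replicates 1, 2 and 3), without tet-LIN28B replicate 1 (0.0562) or without the filter on low counts (0.0601), while the log2 fold change stayed between -1.23 and -1.51. Of its 10260 exon bases 1932 are shared with the gene AC165425.1 on the opposite strand and 269 with Gm17200 on the same strand, whose reads may be counted with it.

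Cxcr4, the receptor that retains precursors in the marrow (chr1:128588199-128592293, minus strand), had 3002, 3152 and 3016 normalized counts in control and 2492, 2761 and 2647 in tet-LIN28B small Pre-B cells. All 3 tet-LIN28B libraries lay below the controls, but the log2 fold change of -0.22 ± 0.07 was not called (limma adjusted p = 0.0702). It was called with libraries rescaled to the same total (-0.25, adjusted p = 0.0419) and by DESeq2 on recovered reads (-0.22, adjusted p = 0.0374).

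The lipid receptors were not called at this stage. S1pr1 (chr3:115710433-115715072, minus strand) had 6287, 6522 and 6182 normalized counts in controls and 6449, 6436 and 5464 in tet-LIN28B cells, which overlap, with a log2 fold change of -0.05 ± 0.08 (limma adjusted p = 0.69). S1pr4 (chr10:81497747-81500132, minus strand) had 1954, 2142 and 2050 against 2200, 2245 and 2203, which do not overlap, with a log2 fold change of 0.11 ± 0.07 (limma adjusted p = 0.333). Gpr183 (chr14:121952551-121965195, minus strand, inside the span of Ubac2 on the other strand with no shared exon base) had 342, 316 and 339 against 375, 374 and 295, with 0.06 ± 0.15 (limma adjusted p = 0.832). Ccr6 (chr17:8236043-8257141, plus strand) did not pass the filter: it had 0 reads in the 3 controls and 0, 1 and 5 reads in the tet-LIN28B libraries.

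**Figure D2:**
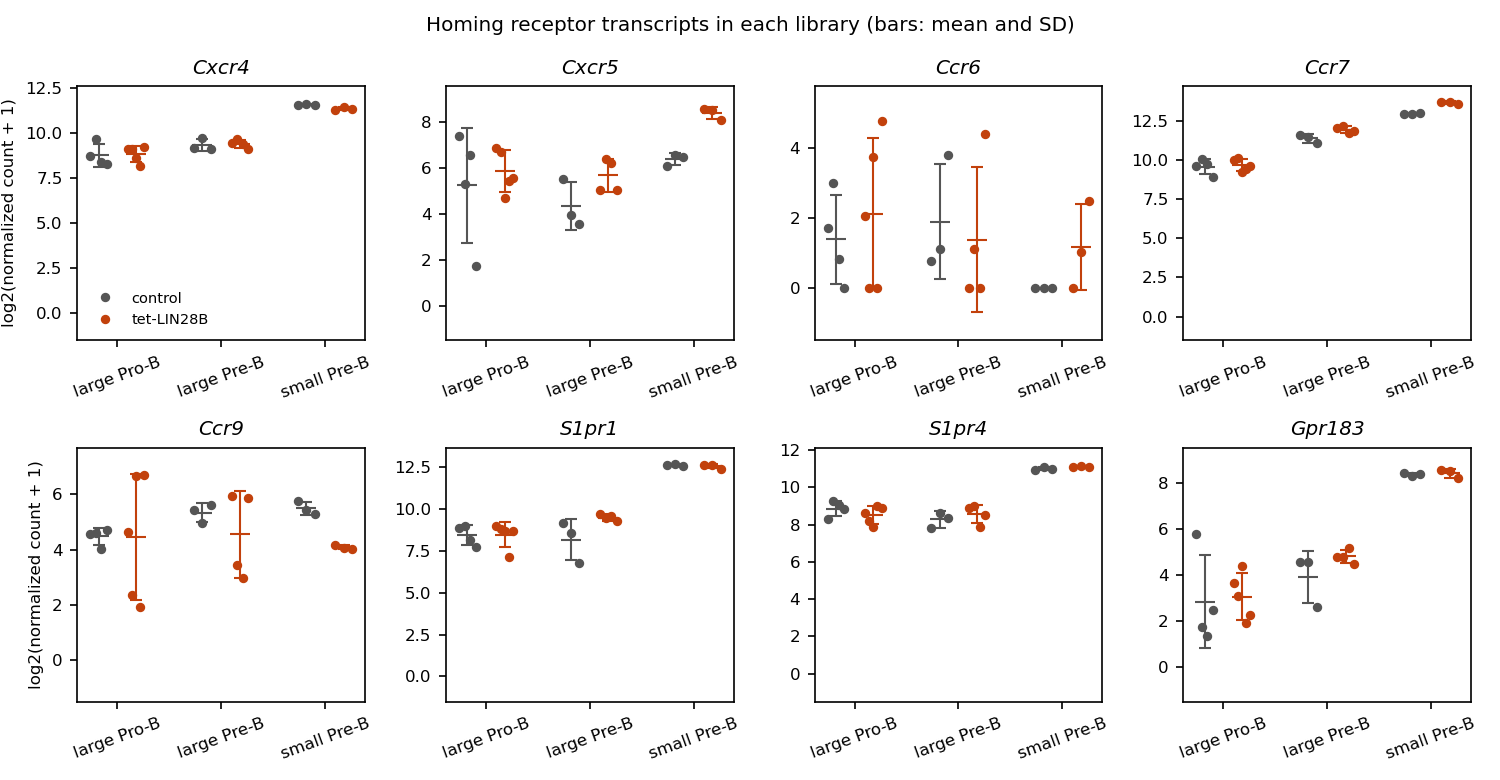
Log2(normalized count + 1) of the 8 receptors in each of the 22 libraries, by stage, for control (grey) and tet-LIN28B mice (orange); bars give the mean and SD, and each stage has its own normalization. In small Pre-B cells the Cxcr5 and Ccr7 points of tet-LIN28B mice lie above all controls and the Ccr9 points below, while the large-cell points of Cxcr5, Ccr6 and Ccr9 scatter widely.

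Markers of other B cell stages moved in the same libraries. Among 8 markers of mature B cells, 4 were called higher and 1 lower at the small Pre-B stage. The background for this and the other marker lists is 7.34% of all genes higher and 7.03% lower. Those that rose were Fcer2a (CD23; 33.3 to 254 normalized counts, limma adjusted p = 7.72e-05), Tnfrsf13c, H2-Ob and Cr2. Ighd had 5067 against 5043. The 8 markers summed to 953 to 1065 RPM in controls and 1080 to 1207 in tet-LIN28B cells. Among 14 precursor markers Cd79b rose and Il2ra, Il7r and Rag2 fell. Of 6 plasma cell markers, Xbp1 rose and Sdc1, Prdm1 and Irf4 fell. The list of plasmacytoid dendritic cells, which express Ccr9, summed without Ccr9 to 1937 to 2000 RPM in controls and 1680 to 1782 in tet-LIN28B cells. Klk1 was at 0 in all 6 libraries, Runx2 in the controls and Siglech in the tet-LIN28B libraries. Irf7 (275 to 583 normalized counts) and Pacsin1 (2.52 to 27.2) rose while the sum fell. The median sum in controls was 104 RPM in large Pro-B, 597 in large Pre-B and 1996 in small Pre-B cells. It is therefore not a measure of these dendritic cells alone. T and NK cell markers, with Cd3e at 0 in all 6, summed to 2.53 to 3.03 against 2.20 to 2.44. Myeloid markers summed to 47.1 to 85.4 against 40.7 to 41.8, and stromal markers to 339 to 378 against 297 to 349. Col1a1, at whose locus the transgene sits, was higher in tet-LIN28B cells (0.674 to 15.4 normalized counts). Cxcl12 averaged 0.0626 RPM in controls and 0.379 in tet-LIN28B cells, and Lepr was at 0 in the controls. The stromal sum was thus carried by other genes of its list. Erythroid markers summed to 1.43 to 2.90 against 4.10 to 5.16, with Hba-a2 and Hbb-bs higher. The part of these markers in the receptor results was not tested.

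In large Pre-B cells no receptor was called, 0 of 7 tested, where 0.0565% of 14155 genes were called (8 genes, and 930 at an unadjusted p under 0.05, 3 receptors among them). Of these genes 0.0424% were higher and 0.0141% lower. edgeR called 0 genes and DESeq2 76 (0.537%), none of them a receptor. Lin28b itself was not called by limma at this stage (4.68-fold in the means, log2 fold change 2.07, adjusted p = 0.452). A missing call here therefore does not show that a gene is unchanged. The median log2 fold change of the 7 receptors was 0.57, against -0.02 for all genes, and 6 of the 7 values were above 0. Ccr7 and S1pr1 had no overlap between genotypes (2 of 8 receptors, against 6.46% of genes).

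Ccr7 had 3063, 2844 and 2152 normalized counts in the control large Pre-B libraries and 4162, 4682, 3383 and 3632 in the tet-LIN28B libraries. Every tet-LIN28B value was above the controls. The log2 fold change of 0.57 ± 0.21 (limma unadjusted p = 0.0176, adjusted p = 0.747) did not pass, where that in small Pre-B cells was 0.69. With a library left out it ran from 0.41, without control replicate 3, to 0.67.

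S1pr1 had 564, 370 and 109 normalized counts in controls and 832, 694, 753 and 611 in tet-LIN28B cells. The tet-LIN28B libraries were alike and the controls spread over a wide range, without overlap. The log2 fold change was 1.34 ± 0.41 (limma unadjusted p = 0.00598, adjusted p = 0.637). It depended on control replicate 3, the library with the lowest correlation with the rest (0.922, others 0.940 to 0.951): without it the log2 fold change was 0.65.

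That control library was also the lowest of the stage for Ccr7, Cxcr5 (10.9) and Gpr183 (5.12). Cxcr5 averaged 23.3 ± 18.5 (n = 3) in control and 55.0 ± 26.6 (n = 4) in tet-LIN28B large Pre-B cells, with 44.6, 14.4 and 10.9 against 32.4, 82.9, 72.5 and 32.0 and a log2 fold change of 1.33 ± 0.59 (limma adjusted p = 0.747; 0.95 without control replicate 3 and 1.92 without control replicate 1). Gpr183 (16.7 against 27.5, 0.90 on the log2 scale), S1pr4 (317 against 395, 0.30) and Cxcr4 (657 against 687, 0.07) overlapped between genotypes. These 3 values also moved with single libraries. Gpr183 was at 0.25 without control replicate 3, S1pr4 ran from 0.06 without control replicate 1 to 0.52 without tet-LIN28B replicate 3, and Cxcr4 from -0.04 without control replicate 3 to 0.26 without control replicate 2. Ccr9 had 42.5, 29.9 and 48.0 in controls and fell into high and low libraries in tet-LIN28B cells, 60.1, 9.79, 6.91 and 57.6 (log2 fold change -0.78 ± 0.73, and -0.26 without replicate 3 or -1.24 without replicate 1 of tet-LIN28B). Myeloid markers summed to 17.5, 375 and 69.5 RPM in controls 1, 2 and 3 and to 10.7 to 20.1 in tet-LIN28B cells. T and NK cell markers separated the genotypes in the direction opposite to Ccr7 and S1pr1, with 12.1 to 23.1 RPM in controls and 6.87 to 9.72 in tet-LIN28B cells. The part of either list in the receptor values was not tested.

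In large Pro-B cells no receptor was called either, 0 of 6 tested, where limma called 0% of 13776 genes (394 at an unadjusted p under 0.05, no receptor among them), edgeR 0 and DESeq2 4 (0.029%), none of them a receptor. All adjusted p-values of the receptors were 0.999 and no receptor separated the genotypes, against 1.3% of genes. Lin28b was not called in large Pro-B cells either (17.2-fold in the means, log2 fold change 3.78, limma adjusted p = 0.29). Log2 fold changes ran from -0.35 (S1pr4, 477 against 379 normalized counts) to 0.60 (Cxcr5). Cxcr5 had 169, 38.6, 93.1 and 2.30 normalized counts in controls and 115, 104, 24.9, 42.1 and 46.4 in tet-LIN28B cells, so that its log2 fold change was positive while its mean was lower (66.4 against 75.8). The control with 2.30 was replicate 4, which had the lowest correlation with the other libraries (0.877) and the lowest sum of mature B cell markers (125 RPM, others 337 to 568).

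Ccr9 and Ccr6 were highest in the large Pro-B libraries with many genes above 0 among the tet-LIN28B mice. Ccr9 had 102 and 103 normalized counts in tet-LIN28B replicates 3 and 5, against 24.2, 4.12 and 2.74 in the other 3 and 15.4 to 25.3 in controls. Ccr6 had 12.5 and 26.3 in the same replicates 3 and 5, against 3.12, 0 and 0 in the others and at most 6.94 in controls. In large Pre-B cells the highest Ccr6 values were likewise in the libraries with the most genes above 0, control replicate 3 (12.8) and tet-LIN28B replicate 4 (19.9), with at most 1.15 elsewhere. Control large Pro-B replicate 4, also with many genes above 0, had no Ccr6 read. Whether the number of detected genes has a part in these values was not tested. Gpr183 did not pass the filter, with 54.2 in control replicate 1 and at most 20.1 elsewhere.

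**Figure D3:**
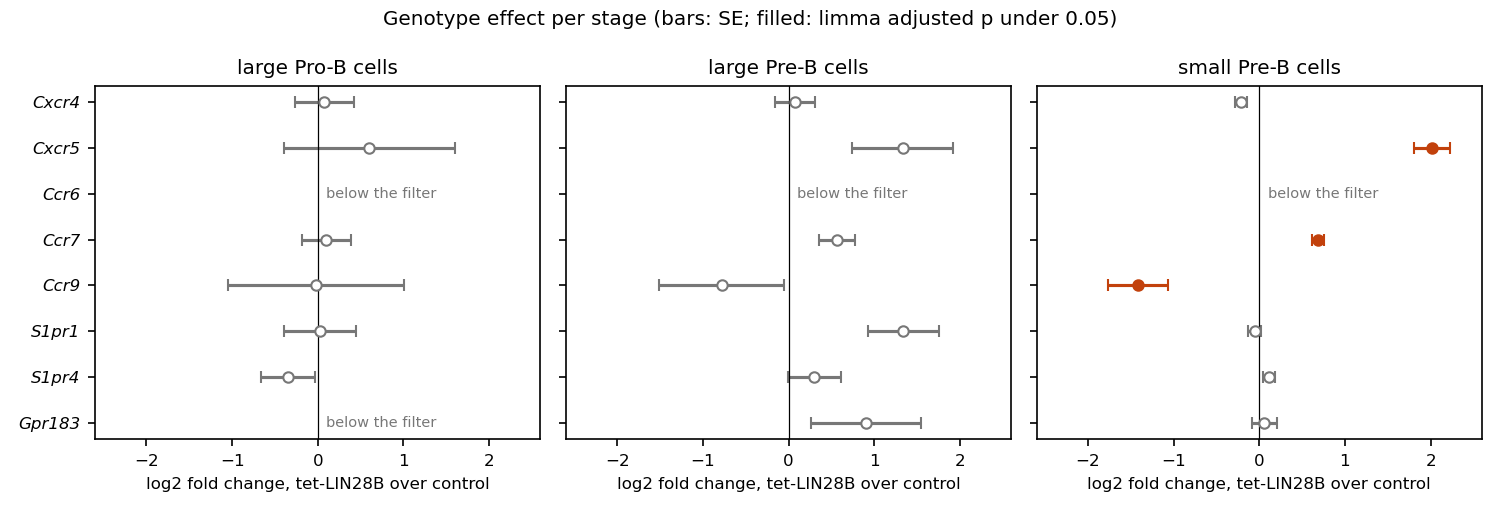
Log2 fold change of tet-LIN28B over control for each receptor in the 3 stages (panels, in order of development); points are limma estimates, bars their SE, and filled points have an adjusted p under 0.05. The filled points are Cxcr5, Ccr7 and Ccr9 in small Pre-B cells, where the SE of each receptor tested is smaller than in the large cells.

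A call at small Pre-B and none before does not show that the stages differ. Tested as a difference of log2 fold changes between stages, 0 of the 6 receptors tested in all 3 stages were called for large Pre-B minus large Pro-B (0% of 11830 genes, limma), small Pre-B minus large Pre-B (0.0169%) or small Pre-B minus large Pro-B (0.0338%). The difference for Cxcr5 between small Pre-B and large Pro-B cells was 1.41 ± 1.23, and for Ccr7 0.59 ± 0.32. For S1pr1 the large Pre-B effect exceeded that in large Pro-B cells by 1.39 ± 0.50 (limma unadjusted p = 0.0106, adjusted p = 1.00). The difference for S1pr1 of small minus large Pre-B cells was -1.47 ± 0.63 (limma unadjusted p = 0.029, adjusted p = 0.999). Without large Pre-B control replicate 3 these differences were 0.77 and -0.86. In the fit of all libraries S1pr1 was the 1 receptor of 6 at an unadjusted p under 0.05 in each of these 2 contrasts, and none was for small Pre-B minus large Pro-B. Precision differed between stages: the SE of a receptor's log2 fold change was 0.29 to 1.03 in large Pro-B, 0.21 to 0.73 in large Pre-B and 0.07 to 0.35 in small Pre-B cells. The fit of stage differences assumed 1 spread per gene over all stages, so its SEs and p-values do not reflect this.

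Among other receptors of the same families, fewer chemokine than lysophospholipid receptors passed the filter at each stage. In small Pre-B cells, 7.34% of all genes were called higher and 7.03% lower, which is the background for both lists. Of 18 further chemokine receptors, 6, 8 and 4 passed the filter at the 3 stages in order of development. Ccrl2, an atypical receptor, had the highest level per kilobase at each stage (1.03, 1.67 and 1.69 RPKM) and was the single one called, falling in small Pre-B cells from 195 ± 21.7 to 111 ± 5.01 normalized counts (n = 3 each, log2 fold change -0.80, limma adjusted p = 0.0186). Of 15 further lysophospholipid receptors, 8, 9 and 10 passed the filter at the 3 stages. At the small Pre-B stage 2 of the 10 rose: Gpr132 (a receptor linked to oxidized lipids; 185 ± 32.8 to 390 ± 29.8, log2 fold change 1.09, limma adjusted p = 0.00271) and S1pr3 (898 ± 55.8 to 1574 ± 441, 0.77, limma adjusted p = 0.0153). Lpar6, a receptor for lysophosphatidic acid, was the most abundant per kilobase of this list at each stage (5.29, 3.02 and 10.5 RPKM) and was not called (small Pre-B log2 fold change 0.11). None of either list was called in large cells, where the 8 further chemokine receptors tested in large Pre-B cells had a median log2 fold change of -0.90 with 0 of 8 above 0.

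Of 6 chemokine ligands, 2, 2 and 1 passed the filter by stage and none was called. Ccl25, the ligand of CCR9, passed at each stage and had 313 ± 45.4 normalized counts (1.21 RPKM) in control and 285 ± 42.6 in tet-LIN28B small Pre-B cells (n = 3 each, log2 fold change -0.14, limma adjusted p = 0.648), and it is named with its values seen. Of 13 genes that make, export or break down sphingosine 1-phosphate and oxysterols, 9 were tested in small Pre-B cells. There 7.34% of all genes rose and 7.03% fell. Spns2, which exports sphingosine 1-phosphate, fell from 1157 ± 85.0 to 698 ± 120 normalized counts (n = 3 each, log2 fold change -0.74, limma adjusted p = 0.00607), and none rose.

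Among 44 genes for coupling and desensitization of these receptors, 40 passed the filter at the small Pre-B stage. Of these 7 rose and 3 fell, where 7.34% and 7.03% of all genes did, with a median log2 fold change of 0.10 against -0.00 for all genes. Those with the smallest adjusted p were Rassf5 (RAPL, an integrin activator downstream of chemokine receptors; 0.57, limma adjusted p = 0.000631), Cnr2 (a cannabinoid receptor coupled to Gi; 0.40, 0.00411), Gnai2 (the main Gi alpha subunit of lymphocytes; 0.38, 0.00512) and Elmo1 (a partner of DOCK2 in Rac activation; 0.35, 0.0101). Rac2, Rap1b and Grk6 also rose, and Gna11, Ptk2b and Rgs12 fell.

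Of 18 transcription factors linked to homing receptor genes or B cell maturation, 2 rose and 3 fell, beside the same 7.34% and 7.03% of all genes, with a median log2 fold change of -0.07. Pou2f2 (OCT2) rose from 2035 ± 125 to 3868 ± 263 normalized counts (n = 3 each, log2 fold change 0.93, limma adjusted p = 0.000136) and Irf8 by 0.32 (0.0113), while Bach2 fell from 41681 ± 516 to 25706 ± 3124 (-0.70, 0.00072), Ebf1 by 0.35 (0.00538) and Irf4 by 0.39 (0.0363). Klf2 and Foxo1, known regulators of S1pr1 and other homing genes, had log2 fold changes of -0.32 (limma adjusted p = 0.0582) and 0.04 (0.685); they are named for that role and with their values seen.

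**Figure D4:**
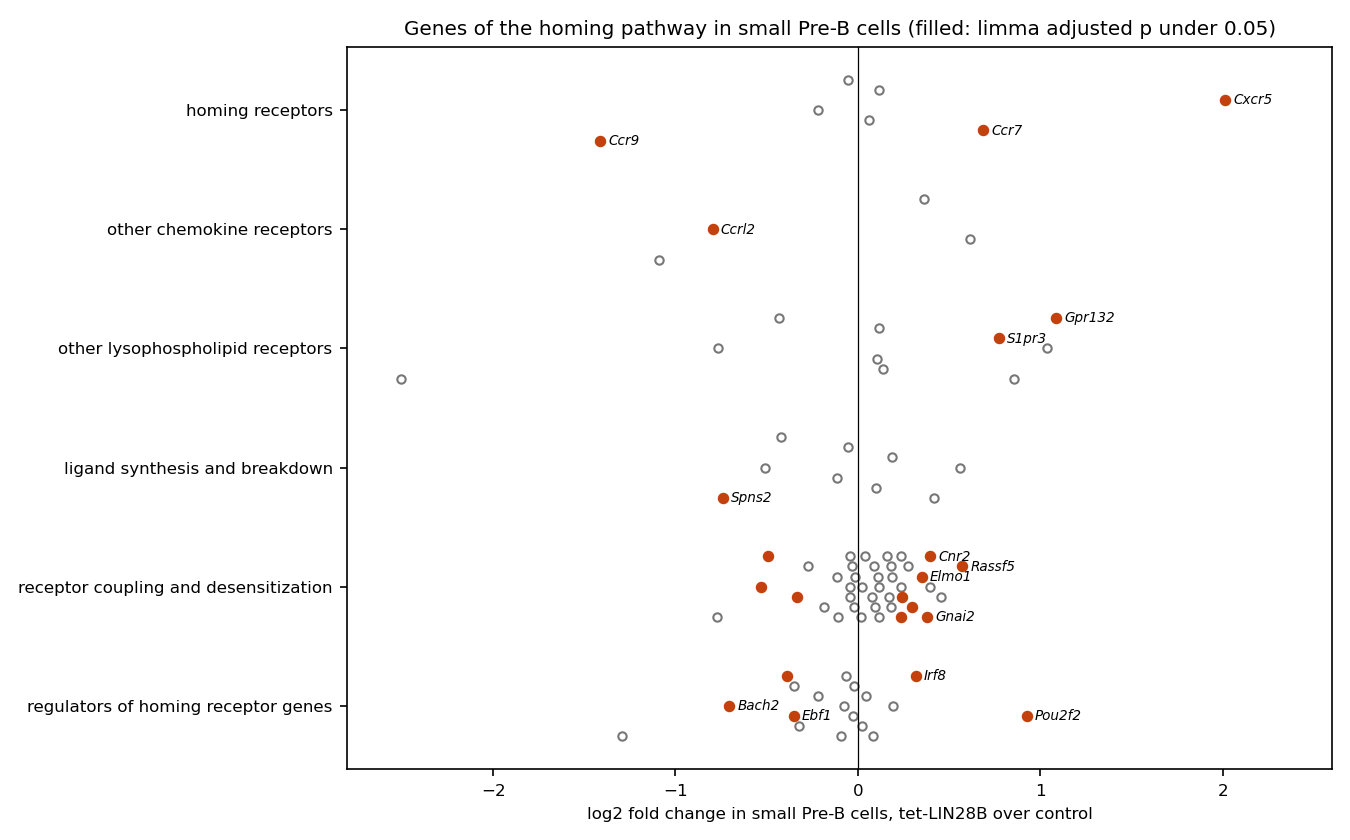
Log2 fold change in small Pre-B cells (horizontal axis) of the tested genes in 6 lists of the homing pathway (rows; vertical scatter within a row has no meaning); filled points have a limma adjusted p under 0.05, and up to 4 of them per list are named. Cxcr5 has the highest value shown, 2.01, and the coupling list has a median of 0.10, with 7 genes called higher and 3 lower.

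Over the 22 libraries, the genes whose log2(RPM + 1) followed a receptor most closely, out of 11830, were Blk (Pearson r = 0.978) and Atp6ap1 (0.977) for Ccr7, Cmtm6 (0.984) and Heatr6 (0.965) for S1pr1, Kif21b (0.968) and Ankle2 (0.955) for Cxcr4, and Mark2 and Gpbp1l1 (0.95 each) for S1pr4. For the low receptors the values were lower, with Fat3 (0.910) and D10Wsu102e (0.898) for Ccr9 and Rdh12 (0.775) and Hsh2d (0.754) for Cxcr5. Among all pairs of the 8 receptors, S1pr1 and Gpr183 were closest (r = 0.932), followed by Cxcr4 and S1pr1 (0.876), and Cxcr5 and Ccr9 farthest (r = -0.530). These correlations describe libraries that share stage, mouse and depth, and how much of them is the difference between stages was not computed. S1pr1 averaged 21.2 RPM in control large Pre-B and 183 in control small Pre-B cells. The low receptors spread widely within 1 group. Ccr9 ran from 0.135 to 6.24 RPM in tet-LIN28B large Pro-B cells, and Cxcr5 from 0.127 to 9.43 in control large Pro-B cells.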

How the data were processed

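The submitters' processing notes name STAR 2.7.1, RSEM 1.28, DESeq2 and mm10; the sources used here give no annotation. In the deposited signal, 1 table per stage, each value is a normalized count, a library's count over its DESeq2 size factor as the authors computed it. The authors' own comparison tables (fold changes and p-values) were not used. The SMART-Seq v4 kit was used, and the sequencer of each library is not given. Libraries are separate mice within a stage, and 7 of the 15 mice gave both large populations.

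The receptors, gene lists and tests were chosen with earlier results of these data known. Symbols altered by R were restored for 3125 of 3516, 3206 of 3597 and 1944 of 2178 genes. Whole reads were recovered for 100% of values (within 0.1 read). These gave depth (13.9 to 23.3, 19.9 to 30.4 and 32.0 to 51.0 M reads), RPM (reads scaled to a common library total) and, with GENCODE vM21 exon lengths, RPKM. Floors cover counting error only, since PCR reads are not independent molecules.

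Genotypes were compared within a stage with limma 3.58.1 (R 4.3.3, eBayes with trend) on log2(normalized count + 1). Tested were genes reaching 10 in as many libraries as the smaller group. Fold changes on this scale understate changes of low genes. Stage differences used 1 model of the 6 groups with mouse as a random block (correlation 0.278). Alternatives were pseudocounts of 0.5 and 5, no filter, a minimum of 50, a common total, TMM, edgeR 4.0.16 and DESeq2 1.42.0 on recovered reads, a replicate block, no mouse block, and each library left out. The fit was tested on simulated data.

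Named are all 8 receptors, up to 4 called genes with the smallest adjusted p per list and stage, the up to 4 most abundant genes per kilobase of the 2 lists of other receptors, the 2 most correlated genes per receptor, and Lin28b. Other called list members named are those in the counts. The value of 1 mature B cell marker is not reported here.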

Additional observations from a re-analysis of the deposited data

Results flagged for a closer look

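S1pr1 in large Pro-B cells of tet-LIN28B replicate 4 had 140.0 normalized counts, where the other 4 tet-LIN28B libraries had 408 to 511, and its gap to the nearest of them was 0.825 of the group's range (Dixon's test). It was 1 of 24 combinations of receptor and group looked at, and chance flags about 1 in 20. That library's mean correlation with the others of the stage was 0.884, against 0.909 to 0.923 for the other tet-LIN28B libraries. The same mouse gave the lowest S1pr1 value of the tet-LIN28B large Pre-B libraries, 611 normalized counts.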

How the results depend on the processing

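The receptors called in small Pre-B cells kept their direction under the alternatives tried. The receptors called in small Pre-B cells were 3, and 2 to 3 with a library left out. All genes called there were 2107, and 1016 (without control replicate 1) to 1965 with a library left out; 1240, 1304 and 1223 remained without tet-LIN28B replicate 1, control replicate 2 and control replicate 3. They split into 1076 higher and 1031 lower, and into 829 and 1227 with libraries rescaled to the same total. That rescaling moved the median of all genes in large Pre-B cells to -0.12 (log2). In large Pre-B cells the 8 genes called became 15 with no filter, 1 with the same total, 0 by edgeR, 76 by DESeq2, 2 with the replicate block, and 0 to 23 with a library left out (23 without control replicate 1). In large Pro-B cells 0 became 4 by DESeq2 and 0 to 1 with a library left out (1 without control replicate 1).

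Genes called for a difference between stages were 0 to 2 with a library left out for large Pre-B minus large Pro-B; for small Pre-B minus large Pre-B they were 2, then 1 with a pseudocount of 5, 1 with no filter, 0 with the replicate block and 1 to 3 with a library left out; for small Pre-B minus large Pro-B they were 4, then 2 with no filter and 1 to 32 with a library left out (32 without large Pro-B tet-LIN28B replicate 4). No receptor was among those called under any of these settings. Receptors without overlap from large Pro-B to large Pre-B cells were 2 to 4 in controls with a library left out (4 without large Pro-B control replicate 1, adding Gpr183 higher and S1pr4 lower). Causes were not tested. Same-numbered libraries of the genotypes did not deviate together at every number (correlations from -0.188 to 0.430). In large Pro-B cells, numbers 1 and 4 had correlations of 0.430 and 0.274, and there the control's closest tet-LIN28B library had the same number. At the other numbers and stages it did not. Whether same-numbered libraries share more than a number cannot be told from this. In the fit with the replicate block, Ccr9 in small Pre-B cells had an adjusted p of 0.051, and no other receptor's call changed.

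Large-cell SEs were wider than those of small Pre-B cells, and the genotype difference of Ccr6 at each stage and of Gpr183 in large Pro-B cells was not tested, since they did not pass the filter on low counts. Values per gene do not separate reads of overlapping genes at Ccr9 and Cxcr5.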
